A study of Mus musculus with 6 samples.

Results

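The DNA repair and checkpoint genes examined here are a list of 38 names, and every probe whose platform symbol was one of them was taken, whatever its values. Of the 38 genes, 37 were matched to 92 of the 45281 probes of the array; Xrcc2 was not analysed here. Testing was limited to probes detected on 3 or more of the 6 arrays, in any group, which left 30 of the genes with 53 probes, out of 12277 genes with 21805 probes. RNA came from Sertoli cells, the somatic cells that nurse germ cells in the seminiferous tubules, of mice aged 6 weeks on a C57B6J/129SvEv background. The cells were labelled by Sox9-GFP, a reporter active in Sertoli cells, and sorted by fluorescence. In the cKO group (3 arrays) the genotype was Rb1 flox/- with Amh-Cre, so that Cre recombinase driven by the Amh promoter, which is active in Sertoli cells, acts on the floxed allele of the retinoblastoma gene. The Control group (3 arrays) was Rb1 flox/- with no Cre. Both groups therefore carry 1 null allele of Rb1, the Control cells keep a single functional copy, and the presence of Cre is confounded with the loss of Rb1. Whether each array stands for its own animal is not in the labels; the p-values therefore reflect the spread among these 6 samples, which may be technical.

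Cells mend DNA by several routes. Homologous recombination copies an intact sister chromatid across a double strand break, the Fanconi anaemia pathway unhooks crosslinks between strands, mismatch repair corrects errors left by the polymerase, end joining religates broken ends, and base excision removes damaged or misplaced bases. The kinases Atm and Atr sense damage and act through Chek2 and Chek1 to hold the cell cycle. Many of these genes are induced in S phase by E2F transcription factors, which the Rb protein holds in check, whereas adult Sertoli cells have left the cell cycle. Germ cells in meiosis also make heavy use of recombination proteins. At issue is whether Sertoli cells without Rb1 express these genes differently.

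The promoters of the 4 genes of this set with the smallest p-values in the comparison are shown first, because E2F sites are the route by which Rb is known to act on such genes. They are RefSeq sequences of the GRCm38.p6 build, from 250 bases before to 50 bases after the annotated start, read 5′ to 3′ along the gene. Capitals mark E2F motifs (TTTCCCGC, TTTCGCGC, TTTGCCGC or TTTGGCGC) and CCAAT, the letters bound by NF-Y, searched on both strands; ATTGG is CCAAT on the other strand. Ung lies at chr5:114130185-114130484 on the plus strand, Msh6 at chr17:87974800-87975099 on the plus strand, Brca1 at chr11:101551906-101552205 on the minus strand and Chek1 at chr9:36726609-36726908 on the minus strand.
Ung: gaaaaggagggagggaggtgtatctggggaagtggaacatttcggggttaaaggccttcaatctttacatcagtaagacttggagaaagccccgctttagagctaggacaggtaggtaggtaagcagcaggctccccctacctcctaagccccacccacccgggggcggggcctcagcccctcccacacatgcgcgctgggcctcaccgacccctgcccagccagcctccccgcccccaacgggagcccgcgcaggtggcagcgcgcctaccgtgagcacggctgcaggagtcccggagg
Msh6: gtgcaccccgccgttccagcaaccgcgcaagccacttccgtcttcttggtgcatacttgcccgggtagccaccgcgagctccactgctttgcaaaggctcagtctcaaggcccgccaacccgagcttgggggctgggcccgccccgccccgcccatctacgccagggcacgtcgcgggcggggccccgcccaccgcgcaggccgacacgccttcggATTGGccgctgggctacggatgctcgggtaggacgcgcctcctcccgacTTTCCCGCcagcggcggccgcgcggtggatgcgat
Brca1: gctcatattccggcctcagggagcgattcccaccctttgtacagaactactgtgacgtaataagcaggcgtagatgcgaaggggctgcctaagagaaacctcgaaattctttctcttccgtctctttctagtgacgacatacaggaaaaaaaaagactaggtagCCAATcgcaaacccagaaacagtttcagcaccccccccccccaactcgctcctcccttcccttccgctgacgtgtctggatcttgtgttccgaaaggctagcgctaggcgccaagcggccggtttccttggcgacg
Chek1: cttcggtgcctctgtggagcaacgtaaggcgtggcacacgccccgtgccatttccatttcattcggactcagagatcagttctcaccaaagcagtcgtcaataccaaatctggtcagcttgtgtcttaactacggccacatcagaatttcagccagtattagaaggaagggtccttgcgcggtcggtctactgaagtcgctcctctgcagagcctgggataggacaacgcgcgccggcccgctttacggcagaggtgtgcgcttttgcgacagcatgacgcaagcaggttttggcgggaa
Msh6 held both motifs, with an E2F motif from base 16 to base 23 after the start and CCAAT from 34 to 30 bases before it, and the motifs did not overlap. Brca1 held 1 CCAAT and no E2F motif of these letters. Ung and Chek1 held neither, which says only that these letters are not in this window. The Chek1 window ends in gcgggaa, the beginning of GCGGGAAA (TTTCCCGC on the other strand), and a match across its edge could not be found.

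Across the set, 32 genes had 35 promoter entries. An E2F motif lay in 9 of these entries, of 8 genes, or 25.7%, against 2.26% of all 32851 promoter entries of the same length. CCAAT lay in 51.4% of the entries, against 37.4% of all. In the 85 entries of other repair genes the shares were 7.06% for E2F and 54.1% for CCAAT. The 10 E2F matches are shown with 10 bases on either side, each read in the direction of the motif, with the motif in capitals, to let their flanks be compared.
Bard1 (chr1:71103164-71103191, minus strand): cgccgctcagTTTCCCGCtcaggaagtt
Fancg (chr4:43010336-43010363, minus strand): ttcttttcagTTTCCCGCggaaccgtct
Chek2 (chr5:110839821-110839848, minus strand): gacgtcttggTTTCCCGCggctaatccc
Brca2 (chr5:150522443-150522470, minus strand): tgtgtgtctgTTTCCCGCtgtggcctaa
Rad51c (chr11:87404478-87404505, minus strand): tttccagcgcTTTCGCGCctcttgctct
Rad51c (chr11:87404942-87404969, plus strand): accccttgctTTTCCCGCcctcgcgggg
Msh3 (chr13:92355188-92355215, minus strand): tgccgtcaagTTTGGCGCgaaatcgcag
Msh3 (chr13:92355184-92355211, plus strand): agggctgcgaTTTCGCGCcaaacttgac
Xrcc6 (chr15:82016313-82016340, minus strand): cccactcgcaTTTCCCGCttccaccccc
Msh6 (chr17:87975055-87975082, plus strand): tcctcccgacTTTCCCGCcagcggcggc
Of these matches, 7 were TTTCCCGC, and the 2 matches of Msh3 overlap on opposite strands. The matches of Rad51c belong to 2 annotated starts. The 8 tested genes with an E2F motif had a median difference between cKO and Control of 0.38 log2 units, from 0.03 to 0.94. The 18 tested genes with an entry but no such motif wholly inside it, Chek1 among them, had a median of 0.41, from -0.23 to 1.33. A match is a description of the sequence and not a measured site.

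**Figure D1:**
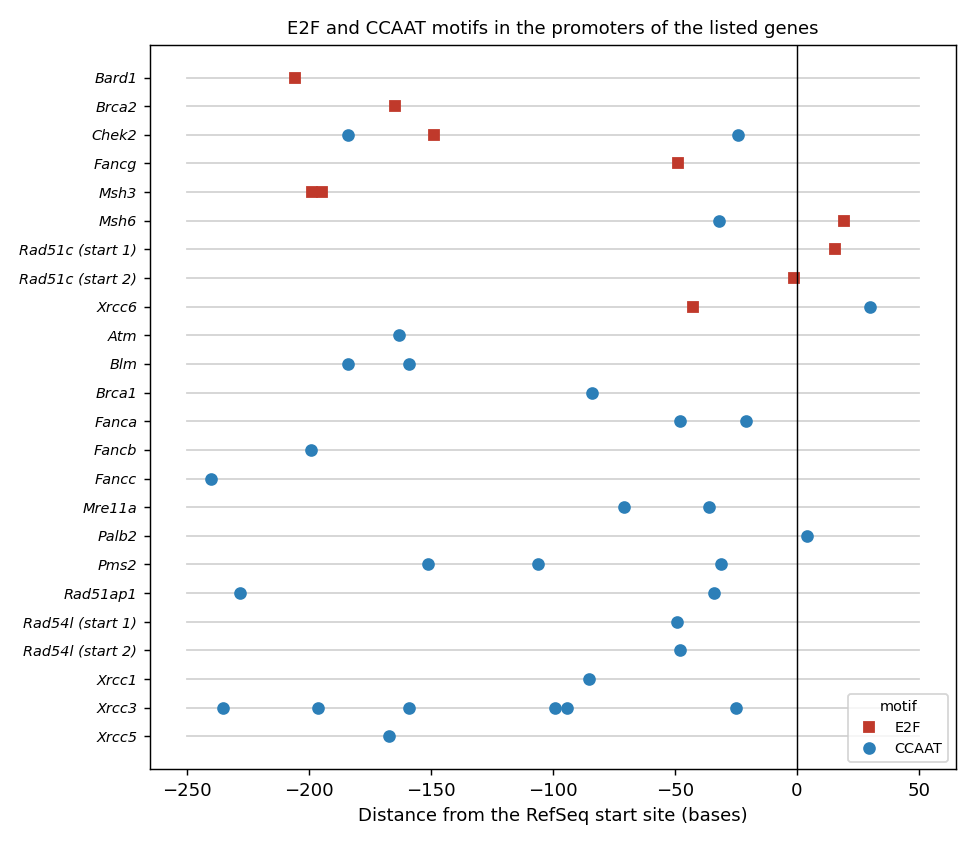
Position of E2F motifs (squares) and CCAAT (circles) in the promoters of the listed genes that held either motif, in bases from the RefSeq start site; each grey line is 1 promoter entry. The 9 entries with an E2F motif are at the top, and their motifs lie between 209 bases before and 23 bases after the start.

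Of 21 Sertoli markers with a probe 20 were tested, and Sox9, Amhr2, Gata4 and Fshr were among those detected on all 6 arrays. Trf, Dmrt1 and Nr5a1 were each undetected on 1 cKO array, and no Kitl probe was detected on 3 arrays. Inha, the inhibin alpha subunit, was at 5.42, 9.92 and 12.24 in cKO and 11.59, 11.20 and 12.85 in Control, and the mean of the list on cKO replicate 1 was -1.37 relative to Control. RNA of other testis cells was present as well, with Prm1, a protamine of spermatids, at 14.82 in cKO and 14.84 in Control on the log2 scale. The 2 Rb1 probes differed by -0.98 ± 0.34 (SE) and -1.22 ± 0.32 log2 units, all cKO arrays below all Control arrays, with adjusted p of 0.668 and 0.399 in limma; their place with respect to the floxed exon was not examined. The share of probes detected ran from 43.0% on cKO replicate 1 to 53.5% on Control replicate 3. Each array had a median of 43 to 44 beads per probe, and the number of arrays limits the precision. The arrays of cKO replicate 1 and Control replicate 3 stood apart: their scores on principal component 1 (58.9% of variance) were -113.9 and 110.2, and the other arrays scored between -34.3 and 31.4. Several results are therefore also given without this pair of arrays, but the medians by route are not.

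No repair or checkpoint gene passed the threshold, yet by their brightest tested probe nearly all tested ones had higher means in cKO. Of 23 further tested probes, however, 11 had the opposite sign to the brightest probe of their gene. The sign also changed for 13 of the 30 genes under at least 1 alternative processing or choice of arrays. With limma, adjusted over all 21805 probes at 0.05, 0 of the 30 tested genes were called in either direction, where 0.142% of all tested probes were called higher and 0% lower (0.195% of genes by their brightest probe). At an unadjusted p under 0.05, 5 of the 30 were higher and 0 lower, against 5.96% and 1.81% of all genes tested. The difference was above 0 for 28 of the 30, against 61.3% of all genes, and its median was 0.38 log2 units against 0.12. The 3 cKO arrays all lay above the 3 Control arrays for 6 genes, Ung, Msh6, Brca1, Chek1, Blm and Fancl, and all below for 0, against 9.56% and 4.33% of all genes. Chek1, counted among the 5, the 28 and the 6, passed the detection filter through the cKO arrays alone, so it had to differ. The other 29 were detected in both groups. Without cKO replicate 1 and Control replicate 3 the median of the set was 0.12, against -0.03 for all genes, and 21 of 29 differences were above 0 against 46.3%. Deviations from the group means correlated between arrays of the same replicate number (0.262, 0.410 and 0.473). For replicate 1 this was not particular to the number, as cKO replicate 1 correlated at 0.263 with Control replicate 2. With the number as a block limma also called 0 of the 30, at a smallest adjusted p of 0.191, and 0 of all probes. At an unadjusted p under 0.05 that fit had 9 of the 30 higher and 0 lower. Over all 21805 tested probes the higher count went from 1010 to 1975 and the lower count from 383 to 1282.

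**Figure D2:**
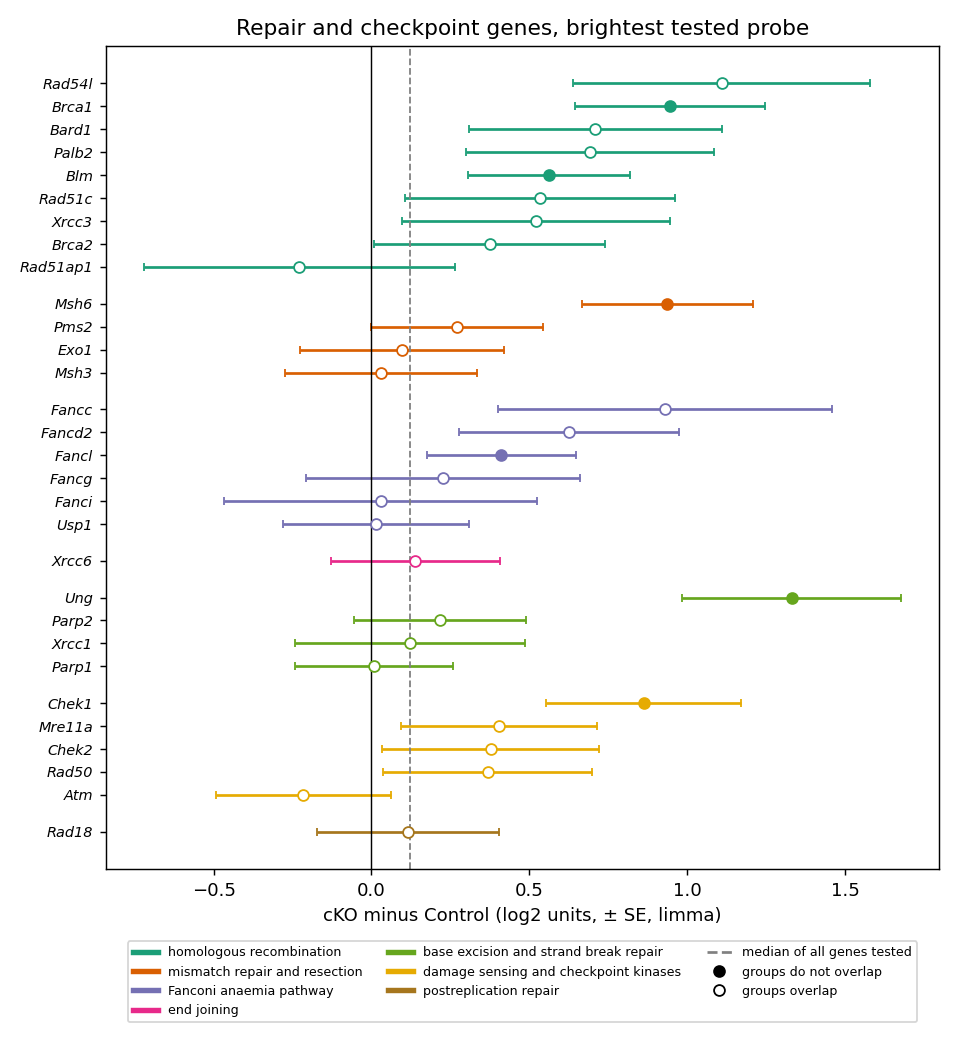
Difference between cKO and Control in log2 units for the brightest tested probe of each of the 30 tested genes, by role, with the SE from limma; filled points are the 6 genes whose groups do not overlap. Most points lie to the right of 0 and of the dashed line, the median of all genes tested at 0.12, while Atm and Rad51ap1 lie to the left of 0. Chek1 entered the test through the cKO arrays alone.

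**Figure D3:**
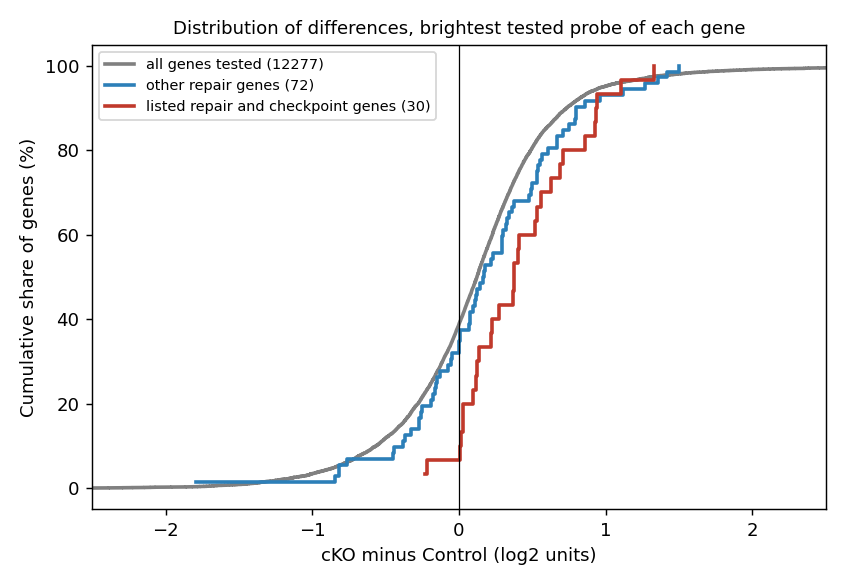
Cumulative share (%) of genes against the difference between cKO and Control in log2 units, for the 30 tested genes of the set, 72 other repair genes and all 12277 genes tested. The axis is limited to 2.5 log2 units either way. The curve of the set lies to the right of that of all genes over most of its range, with medians of 0.38 and 0.12.

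Among genes of homologous recombination, 9 were tested, 8 differences were above 0 and the median was 0.56. Brca1, the ubiquitin ligase subunit that promotes strand resection and recruits partners to breaks, was at 6.59, 7.12 and 6.66 log2 units on cKO replicates 1 to 3 and at 5.62, 6.25 and 5.66 on the Controls. Every cKO array exceeded every Control array. The difference was 0.95 ± 0.30 (SE), from 5.84 ± 0.36 (SD, n = 3) in Control to 6.79 ± 0.29 in cKO, with an adjusted p of 0.590 in limma. It was 0.97 without the 2 arrays that stood apart. Bard1, the obligate partner of Brca1, was at 7.69, 7.07 and 7.27 in cKO and 7.26, 6.77 and 5.88 in Control. Here the groups overlapped, because Control replicate 1 reached the range of cKO, and the low value was that of Control replicate 3. Its difference of 0.71 ± 0.40 (adjusted p 0.766) was 0.16 without the 2 arrays that stood apart. Palb2, which bridges Brca1 to Brca2, was at 8.64, 8.09 and 7.89 in cKO and 8.13, 7.57 and 6.85 in Control. Again Control replicate 3 was lowest and cKO replicate 1 highest, and the difference of 0.69 ± 0.39 (adjusted p 0.766) was 0.15 without both. Brca2, the partner of Palb2 in recombination, differed by 0.37 ± 0.37, and by -0.10 without those arrays.

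Rad54l, a motor protein that remodels DNA during recombination, was at 9.06, 8.40 and 7.78 in cKO and 7.96, 7.43 and 6.53 in Control. The cKO array of each replicate number was above the Control array of that number, but replicate 3 of cKO lay below replicate 1 of Control. The difference was 1.11 ± 0.47 (adjusted p 0.766 in limma, 0.191 with the replicate block), and 0.41 without the 2 arrays that stood apart. Blm, the helicase that dissolves recombination intermediates, was at 10.71, 10.37 and 10.32 in cKO and 9.99, 10.01 and 9.71 in Control, with no overlap. It differed by 0.56 ± 0.26 (adjusted p 0.766), its other tested probe by 0.49, and it was at 0.35 without those arrays. Rad51c and Xrcc3, which form a complex with each other, differed by 0.53 ± 0.43 and 0.52 ± 0.42 with overlapping groups, and by 0.09 and -0.03 without the same arrays. Rad51ap1, an accessory factor of recombination, was 1 of the 2 genes below 0, at -0.23 ± 0.49.

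Of the 4 tested genes of mismatch repair and resection, Msh6 had the largest difference. Msh6, which recognises base mismatches as part of the MutSα complex, was at 12.10, 11.89 and 11.48 in cKO and at 11.00, 10.78 and 10.88 in Control. The lowest cKO array exceeded the highest Control array by more than the whole range of the Controls. The difference was 0.94 ± 0.27 (SE), or 1.91-fold, from 10.89 ± 0.11 (SD, n = 3) to 11.82 ± 0.32, with an adjusted p of 0.483 in limma. A second probe of Msh6 gave 0.96 ± 0.27 (adjusted p 0.440) and the difference was 0.78 without the 2 arrays that stood apart. Pms2, the endonuclease subunit that nicks the new strand, differed by 0.27 ± 0.27. Exo1, the exonuclease that removes the nicked stretch, and Msh3, which recognises larger loops, gave 0.10 ± 0.32 and 0.03 ± 0.30 and were not detected on every array. Differences between Msh6 and these genes were not tested.

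Of the Fanconi anaemia genes 6 were tested, all with differences above 0 and a median of 0.32. Fancl, the ubiquitin ligase of the pathway, was at 8.78, 8.60 and 8.55 in cKO and 8.20, 8.28 and 8.21 in Control. The groups did not overlap, and the Control arrays spread by an SD of only 0.04. It differed by 0.41 ± 0.24 (adjusted p 0.766); 3 further tested probes of Fancl gave 0.66, 0.85 and -0.82, the last at low and scattered levels. Fancd2, which Fancl marks with ubiquitin, was at 10.03, 9.31 and 9.47 in cKO and 9.46, 8.97 and 8.50 in Control. The groups overlapped only through Control replicate 1, and the difference of 0.63 ± 0.35 (adjusted p 0.766) was 0.17 without the 2 arrays that stood apart. Fancc, of the core complex that holds the ligase, was at 8.17, 7.22 and 6.79 in cKO and 7.09, 6.82 and 5.48 in Control. Its spread within groups was wide, the difference was 0.93 ± 0.53 (adjusted p 0.766), and it was 0.05 without those arrays. Fancg, another core subunit, and Fanci, the partner of Fancd2, differed by 0.23 ± 0.43 and 0.03 ± 0.50. Usp1, the protease that takes the ubiquitin off Fancd2, differed by 0.01 ± 0.29.

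In base excision and strand break repair, Ung had the largest difference of the 30 tested genes. Ung, the glycosylase that removes uracil from DNA, was at 10.88, 11.24 and 10.93 in cKO and 9.69, 10.27 and 9.11 in Control. All cKO arrays were above all Control arrays, and the spread was wider in Control. The difference was 1.33 ± 0.35 (SE), or 2.51-fold, from 9.69 ± 0.58 (SD, n = 3) to 11.02 ± 0.20, with an adjusted p of 0.390 in limma, 0.200 with the replicate block. It was 1.10 without the 2 arrays that stood apart, and a second tested probe, at a lower signal, gave 0.22 ± 0.26. The break sensor Parp1 was at 11.66, 11.77 and 11.97 in cKO and 11.69, 11.99 and 11.70 in Control. Its difference of 0.01 ± 0.25 was the smallest of the set in size. Parp2, a related polymerase, and Xrcc1, the scaffold of single strand break repair, differed by 0.22 ± 0.27 and 0.12 ± 0.36. Of the end joining genes only Xrcc6, which encodes Ku70, was tested, at 0.14 ± 0.27. Rad18, the ligase that marks PCNA at stalled forks, differed by 0.11 ± 0.29.

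Among damage sensors and checkpoint kinases, 4 of 5 tested genes had differences above 0, and these include Chek1, whose direction was set by the detection filter. Chek1, the kinase that Atr activates, was detected on all 3 cKO arrays but was not well above background on the Control arrays. Its probe was at 5.92, 5.29 and 4.98 in cKO and 4.60, 4.52 and 4.47 in Control, and the groups did not overlap. Chek1 entered the test through the cKO arrays alone, so its direction and lack of overlap were set by the filter. As a bound, its mean was at least 1.28-fold higher in cKO (each Control array counted at its own signal or, if higher, at the dimmest detected probe). This bound and the adjusted p of 0.685 in limma come after the same filter and are no further support. The measured means were 5.39 and 4.53. Its fitted difference of 0.86 was 0.43 with a background offset of 50 and 0.54 when the pair of arrays was left out. A further 2 Chek1 probes were not above background in either group. Chek2, the kinase that Atm activates, differed by 0.38 ± 0.34. Mre11a, the nuclease of the complex that binds broken ends, was at 10.39, 9.73 and 9.60 in cKO and 9.72, 9.55 and 9.24 in Control. The groups overlapped, and its difference of 0.40 ± 0.31 was 0.03 without those arrays, as that of its partner Rad50 went from 0.37 to -0.03. Atm was at 8.52, 8.58 and 8.58 in cKO and 8.49, 9.19 and 8.65 in Control. It was the other gene of the set below 0, at -0.22 ± 0.28, and 2 further tested probes gave 0.26 and 0.27.

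**Figure D4:**
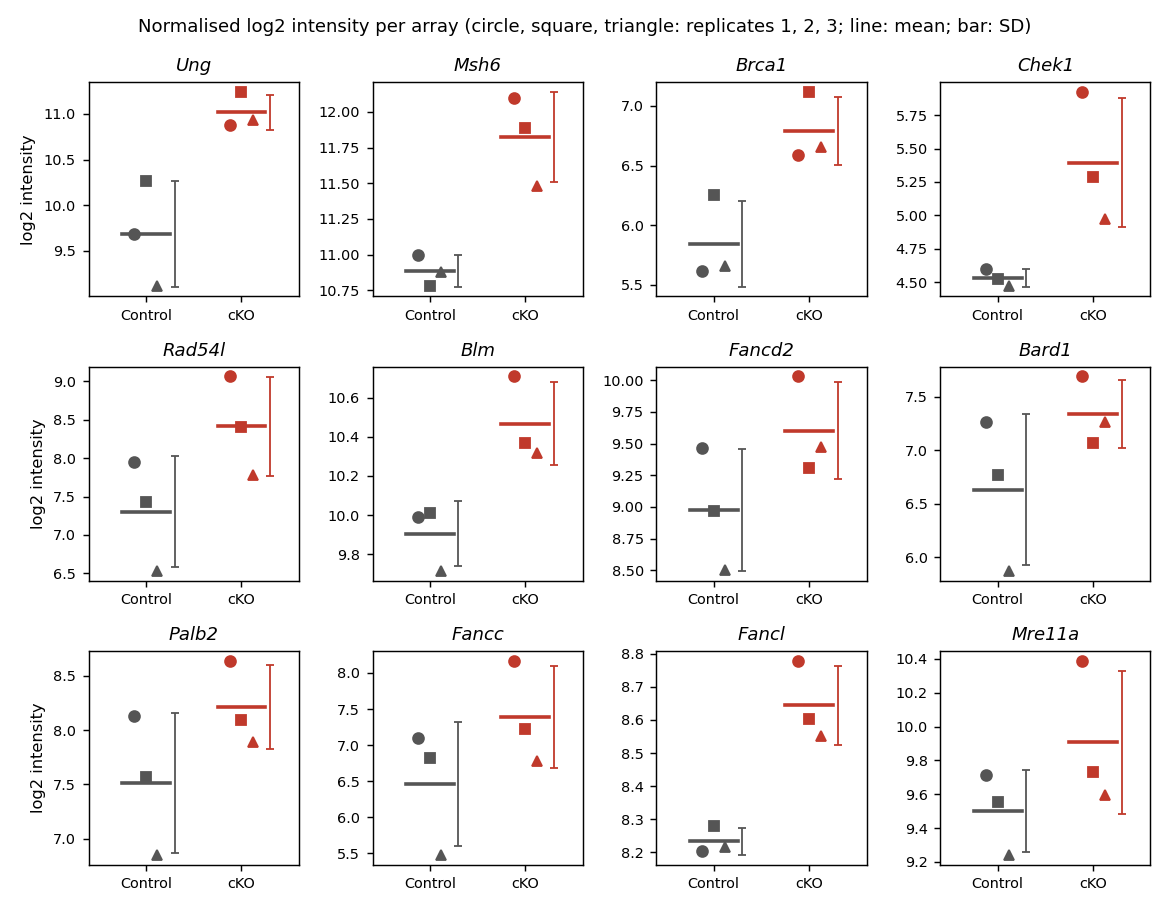
Normalised log2 intensity on each array for the 12 genes of the set with the smallest p-values; circles, squares and triangles are replicates 1, 2 and 3, lines are group means and bars are SD (n = 3), and each panel has its own axis, which does not start at 0. Ung, Msh6, Brca1, Chek1, Blm and Fancl have no overlap between the groups, while in Rad54l, Fancc and Palb2 the lowest Control array is replicate 3 and the highest cKO array is replicate 1. Chek1 entered the test through the cKO arrays alone.

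The 2 arrays that stood apart were also the extreme ones for most of the listed genes. Within cKO, replicate 1 was the highest of the 3 arrays for 22 of the 30 genes (73.3%), against 54.3% of all genes tested. Within Control, replicate 3 was the lowest for 17 of the 30, or 56.7%, against 56.5% of all genes. Comparing arrays of the same replicate number, the cKO array was the higher in all 3 pairs for 18 of the 30 genes (60.0%), against 30.5% of all genes.

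The 7 genes with probes but no tested probe were Fanca, Fancb, Xrcc4, Xrcc5, Nbn, Atr and Neil3. The probe of Xrcc5, which encodes Ku80, and those of Atr, Nbn, Fancb and the glycosylase Neil3 were not well above background on any array. Fanca and the end joining scaffold Xrcc4 each had 1 probe detected on Control replicate 3 alone. Over the set, 9 of 92 probes were detected on Control replicate 3 and on no other array, against 5.14% of all probes; for the other 5 arrays this count was 0 or 1. Among tested probes, a pair of Usp1 probes stood at 10.48 and 10.45 on Control replicate 3 and between 6.29 and 7.44 on the other arrays, so that they differed by -1.22 ± 0.95 and -1.39 ± 0.95. The probe of Usp1 used above did not show this. In all, 23 further tested probes existed for 17 of the genes, and 11 of them had the opposite sign to the brightest probe. They were those of Rad51c (-0.34), Fancc (-0.03), Mre11a (-0.13), Rad50 (-0.26), Xrcc6 (-0.18) and Parp1 (-0.08), besides those of Fancl, Usp1 and Atm given above. With probes of the same sign but under 0.5 times the size, the count was 15 of 23. These were further probes of Fancc (0.14), Mre11a (0.04) and Chek2 (0.04), and that of Ung given above.

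The wider repair network was read from 105 other listed names, of which 72 were tested. With limma 0 were called; at an unadjusted p under 0.05, 7 were higher and 0 lower, and 48 differences were above 0, with a median of 0.17. The corresponding shares of all genes were 5.96% and 1.81%, and 61.3% above 0. The cKO arrays all lay above the Controls for 11 of them and below for 2, against 9.56% and 4.33% of all genes; the 11 include Cdc25b, which passed the detection filter through the cKO arrays alone. Clspn, the adaptor through which Atr activates Chek1, was at 8.01, 8.27 and 8.27 in cKO and 7.25, 6.86 and 6.36 in Control. The groups did not overlap, and the difference of 1.36 ± 0.30 had an adjusted p of 0.264; another probe gave 1.45 and a dimmer probe 0.02. Timeless, which protects replication forks with Tipin, was at 8.89, 8.57 and 8.19 in cKO and 7.67, 6.96 and 6.51 in Control. It did not overlap either, at 1.50 ± 0.37 (adjusted p 0.338). The helicase Brip1, a partner of Brca1, differed by 1.42 ± 0.45, and Ube2t, the ubiquitin-conjugating enzyme that works with Fancl, by 0.86 ± 0.30, with adjusted p of 0.577 and 0.668. Rad54b, Rad51ap2, the polymerase Poli and Parp3 differed by 0.96, 1.27, 0.80 and 0.79. When that pair of arrays was left out, Clspn was at 1.25, Timeless at 1.09, Brip1 at 0.83, Rad51ap2 at 0.80, Rad54b at 0.60, Poli at 0.36 and Parp3 at 0.40.

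The routes differed in their medians, which were not tested against each other. Other recombination genes had a median of 0.57 over 11 tested, with 9 above 0. Checkpoint and damage signalling genes had 0.25 over 16, with 14 above 0. Nucleotide excision genes, which remove bulky lesions, had a median of -0.05 over 11, with 5 above 0, and the translesion and postreplication genes -0.32 over 8, with 3 above 0.

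Markers of other cell types also lay higher in cKO in most cases, although limma called 0 of the tested markers. At an unadjusted p under 0.05, 4 of 8 endothelial, 4 of 6 peritubular and 3 of 11 spermatogonia markers were higher. So were 3 of 6 leukocyte and 2 of 5 Leydig markers, but 0 of 14 spermatocyte, 0 of 12 spermatid and 0 of 20 Sertoli markers. Lower ones were 1 leukocyte and 1 Sertoli gene. Over all genes tested, 5.96% were higher and 1.81% lower at that p, and 61.3% had a difference above 0. Ret among the spermatogonia genes and Star among the Leydig genes entered the test through the cKO arrays alone, so they had to differ. Of 11 tested spermatogonia markers 9 had differences above 0, with a summed linear level of 5583 to 6810 on the cKO arrays and 4733 to 5491 on the Controls; Zbtb16, Nanos2, Nanos3 and Pou5f1 were not detected on any array. Of 14 spermatocyte markers 13 were above 0, with sums of 88842 to 103916 and 67170 to 99460; Sycp3, Dmc1 and Hormad1 were not detected on any array. Of 12 spermatid markers 9 were above 0, with sums of 121065 to 157302 and 105683 to 154712. Peritubular markers had 6 of 6 above 0 (10870 to 20596 and 5432 to 10115; Cnn1 and Tagln not detected), endothelial markers 8 of 8 (1507 to 3939 and 373 to 602; Kdr not detected) and Leydig markers 4 of 5 (2326 to 8616 and 1196 to 2982; Hsd3b1 not detected). Leukocyte markers had 5 of 6 above 0, although their sum was lower in cKO (3643 to 4794 and 5093 to 6564; Ptprc, Itgam and Tyrobp not detected). Mrc1 was the 1 below 0, and the other 5 summed to 1404 to 2008 and 408 to 1449. The larger part of the endothelial sums in cKO was the Robo4 probe. It was at 11.46, 9.96 and 10.22 in cKO and 6.973, 7.323 and 6.285 in Control, a difference of 3.685. Further tested probes of Robo4 gave 0.23 and 0.31, and the median difference of the endothelial markers was 1.01. Sertoli markers had 19 of 20 below 0, with sums of 127492 to 145707 and 148998 to 162989. In such bulk samples fewer cells of a type and less RNA per cell cannot be told apart, and the part of these markers in the differences of the repair genes was not tested.

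**Figure D5:**
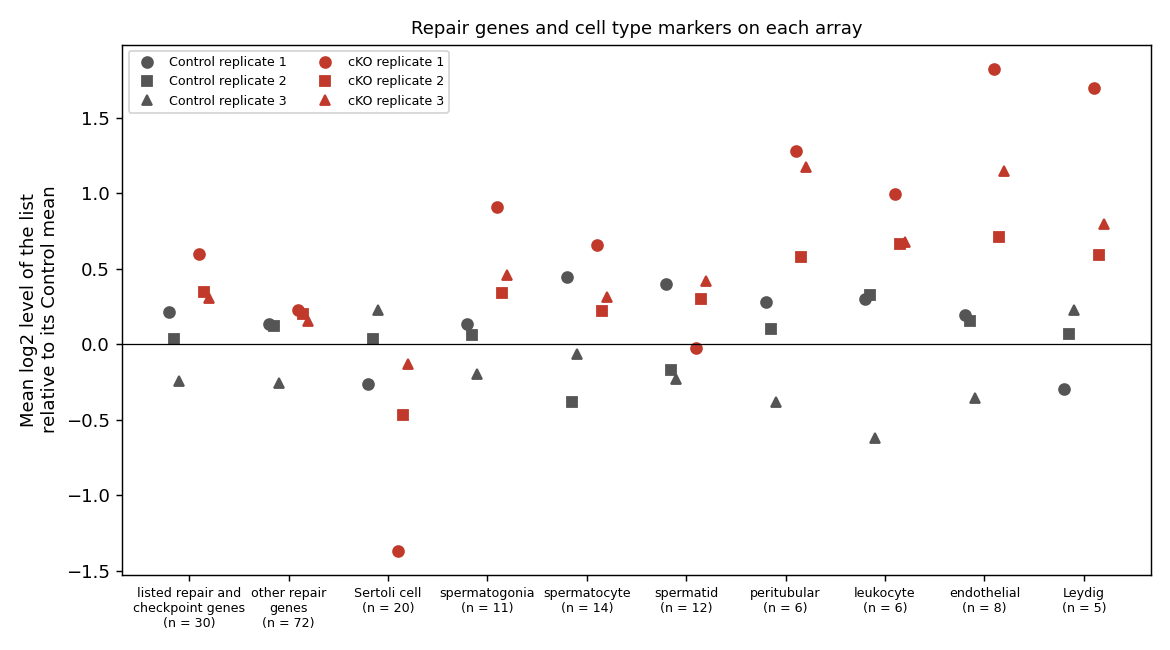
Mean log2 level of the repair lists and of each cell type's markers on every array, relative to the mean of the 3 Control arrays; red points are cKO and grey points Control, with shapes for replicates 1 to 3, and n is the number of tested genes. The listed repair genes lie at 0.60, 0.35 and 0.30 on cKO replicates 1 to 3 and at 0.21, 0.03 and -0.24 on the Controls; the spermatogonia, peritubular, leukocyte, endothelial and Leydig markers also lie higher on every cKO array.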

How the data were processed

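Expression was measured on 6 Illumina bead arrays, 3 cKO and 3 Control by their titles. Per the file headers, the scanner tables hold a mean intensity, a bead count and a detection score per probe; these intensity values are linear and, as far as they show, not scaled between arrays. The deposited detection score rises with signal, and detection here means a score over 0.95. The submitters' processing notes name BeadStudio without a version. The deposited series table holds log2 values, which were found to be log2 intensity less its 75th percentile on that array, with every probe then set to a median of 0. Through this formula all 45281 entries were joined to 1 scanner probe each (largest distance 0.000395, smallest to a second probe 0.00279), and genes were named from the platform annotation (1 symbol for 34885 probes, several for 18, none for 10378; 34807 Entrez IDs were in a GRCm38.p6 gene table).

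Intensities were corrected and quantile-normalised with neqc (offset 16) in limma 3.58.1 (R 4.3.3). Probes detected on at least 3 of 6 arrays entered lmFit and eBayes (a two-sided test) in a model holding group alone, and p-values were adjusted by Benjamini-Hochberg over all tested probes. The brightest tested probe stands for a gene. The fit was tested on simulated data with independent noise on each array and added differences larger than any among the listed genes. That test therefore does not bear on differences of the size seen here, or on arrays that deviate together. The members, the lists and the rule for named genes (all members, with values on every array for the 12 with the smallest p, and the 8 other repair genes with the smallest p) were chosen with earlier results of these data known. Alternatives covered the background correction, scaling, the deposited log2 values, the detection filter, 1 probe per gene, a replicate block and leaving out arrays. Deviations from the group means correlated between arrays of the same replicate number at 0.262, 0.410 and 0.473, all over 0.1. The number was used as a block in an alternative fit only, and the main fit did not pair the arrays. However, cKO replicate 1 correlated as highly with Control replicate 2 (0.263), and the labels do not say what a number stands for. No slide or scan date is given in the sources used here.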

Additional observations from a re-analysis of the deposited data

How the results depend on the processing

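No repair or checkpoint gene, and none of the 72 other repair genes, was called by limma under any alternative run, including the replicate block and the fits that leave out arrays; the smallest adjusted p of a listed gene was 0.191. Over all probes limma called 31 in the main analysis, 0 with the replicate block, 12 with a normexp offset of 50, 13 with uncorrected intensities, 1 when dim probes were kept, 56 with 1 probe per gene, and 0 to 6 when arrays were left out. The median difference of the listed genes was 0.38, and 0.12 to 0.52 when arrays were left out, lowest without both cKO replicate 1 and Control replicate 3. The count of listed genes whose groups do not overlap was 6, and 5 to 14 when arrays were left out, with 13 above and 1 below without cKO replicate 3 or without Control replicate 1 (all genes: 18.1% and 26.8% above, from 9.56%), where smaller groups overlap less often by construction. Of the 30 tested genes, 17 kept the sign of their difference under each alternative in which they were tested and 13 did not; of the 17, Exo1 was tested in 10 of the 15 alternatives, Fancg and Chek1 in 11; the cause was not tested. When arrays were left out, differences ran from -0.10 to 0.67 for Brca2, -0.72 to 0.35 for Rad51ap1, -0.029 to 0.756 for Xrcc3, -0.17 to 0.24 for Msh3, -0.47 to 0.48 for Fanci, -0.22 to 0.17 for Usp1, -0.032 to 0.281 for Xrcc6, -0.27 to 0.43 for Xrcc1, -0.078 to 0.106 for Parp1, -0.016 to 0.349 for Parp2, -0.028 to 0.621 for Rad50, -0.0095 to 0.581 for Chek2 and -0.049 to 0.247 for Rad18. Msh3 was also at -0.048 with median scaling and -0.056 with the deposited log2 values. Signal over background limits Chek1, Exo1, Msh3, Fancg, Fanci and Rad51ap1, each not detected on at least 1 array.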
